A study of Homo sapiens with 9 samples.

Results

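RNA-seq read counts were compared between RIVA cells that carried a BCL10 R58Q construct (3 samples) and RIVA cells that carried the empty vector (3 samples), 6 of the 9 samples in the series. The members of the comparison were taken by their labelled genotype, and all 15435 genes with enough reads, of 60656 in the table, were tested. The remaining 3 samples carried BCL10 S136X and are used where the effect of R58Q is set beside that of the other mutant. RIVA is an established human line of diffuse large B-cell lymphoma (DLBCL). Every sample, vector included, was infected with a Tet-On lentiviral construct and received doxycycline (200 ng/mL in the treatment protocol) for 24 h. One label gives the same number per µL. The vector samples are labelled BCL10 wild type, so the cells' own BCL10 gene was present in all samples and the mutants were expressed on top of it. The 9 samples hold no induced wild-type BCL10. No source used here states whether a culture was a clone, and the replicates are called biological without saying whether infections were separate. The p-values below measure the spread between these samples, which may be technical in part.

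BCL10 is the adaptor of the CBM complex, in which BCL10 and MALT1 assemble into filaments after B-cell receptor signals and activate the IKK kinases and, through them, NF-kB. Activated B-cell-like DLBCL depends on this pathway. NF-kB acts by binding kB sites near its target genes, which include its own inhibitors, cytokines, survival genes and costimulatory ligands. Genes of the interferon response are instead bound by STAT and IRF factors at interferon-stimulated response elements (ISRE). R58Q is a missense change in the CARD domain of BCL10, the part through which filaments form, and S136X is a stop codon after that domain.

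The position of the R58Q change is shown first, because the constructs are defined by it. In the reference coding sequence of BCL10 (233 residues, read from the GENCODE transcript), codon 58 encodes arginine. The 21 codons around it, codons 48 to 68, are printed 5′ to 3′ with codon 58 in capitals.
BCL10 codons 48 to 68: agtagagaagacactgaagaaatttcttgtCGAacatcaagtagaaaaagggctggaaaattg

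Promoters of 4 genes that rose are printed next, chosen because they hold a match to one of the motifs counted later. The same windows of TRAF1, EBI3, BCL2A1, LTA and TNF held no match to the kB motif, and that of MX1 none to the ISRE letters, though these genes rose too. Each holds the 250 bases before the annotated start (RefSeq, GRCh38.p14), written 5′ to 3′ on the strand of the gene. In NFKBIA (chr14:35404750-35404999, minus strand) and CCL22 (chr16:57358533-57358782, plus strand), capitals mark the match to the kB motif, which starts 81 and 185 bases before the gene's start. In ISG15 (chr1:1013247-1013496, plus strand) and IFIT1 (chr10:89392373-89392622, plus strand), capitals mark matches to the ISRE letters GAAANNGAAA on either strand, 2 in each, the first starting 113 and 116 bases before the start. The pair in ISG15 overlaps.
NFKBIA promoter: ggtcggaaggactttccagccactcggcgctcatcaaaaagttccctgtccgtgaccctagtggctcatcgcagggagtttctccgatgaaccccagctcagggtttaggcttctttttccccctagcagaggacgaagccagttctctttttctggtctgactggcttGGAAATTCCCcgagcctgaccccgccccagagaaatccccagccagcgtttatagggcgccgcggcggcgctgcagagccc
CCL22 promoter: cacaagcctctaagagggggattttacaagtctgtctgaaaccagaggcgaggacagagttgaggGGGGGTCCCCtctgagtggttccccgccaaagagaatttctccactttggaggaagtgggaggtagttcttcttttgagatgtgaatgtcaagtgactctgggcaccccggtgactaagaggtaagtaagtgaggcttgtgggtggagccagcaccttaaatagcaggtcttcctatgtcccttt
ISG15 promoter: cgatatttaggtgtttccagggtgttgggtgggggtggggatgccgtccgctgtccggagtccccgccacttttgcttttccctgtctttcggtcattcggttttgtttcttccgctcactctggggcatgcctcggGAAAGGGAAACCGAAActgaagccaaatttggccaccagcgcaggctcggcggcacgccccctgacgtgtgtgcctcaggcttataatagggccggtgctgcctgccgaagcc
IFIT1 promoter: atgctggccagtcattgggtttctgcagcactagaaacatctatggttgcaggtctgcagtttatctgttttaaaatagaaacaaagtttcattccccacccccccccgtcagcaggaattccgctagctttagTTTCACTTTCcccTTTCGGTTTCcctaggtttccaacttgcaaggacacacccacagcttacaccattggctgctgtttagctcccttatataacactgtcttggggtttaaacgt

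BCL10 itself checked the labels. Levels are given as CPM, counts scaled to library size with TMM factors, and triplets are in the order of replicate numbers. BCL10 was at 26.3, 38.8 and 27.5 CPM in vector and at 357, 338 and 309 CPM in R58Q. In S136X it was at 488, 409.6 and 345 CPM. All 3 R58Q samples lay far above all 3 vector samples. The mean rose 10.8-fold, from 30.9 ± 6.87 to 335 ± 24 CPM (SD, n = 3 each), a log2 fold change of 3.44 ± 0.15 (SE) with an adjusted p of 1.76e-05 (edgeR's quasi-likelihood F test, Benjamini-Hochberg). Reads of the construct and of the cells' own gene (chr1:85265776-85276632, GRCh38) cannot be told apart in these counts, and a gene count does not show the codon. Between R58Q and S136X, BCL10 differed by -0.32 ± 0.12 on the log2 scale, which did not pass the test (adjusted p = 0.363). With the replicate block the difference was -0.30 (adjusted p = 0.000189), under 1.5-fold, and R58Q was the lower in each of the 3 pairs.

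Total counts were 30001492 to 32908627 in the R58Q samples and 32185418 to 33122267 in the vector samples. The names of the R58Q columns carry a later date than those of the vector and S136X columns, so the date and the construct cannot be told apart. All 10 B-lineage markers, and 9 of 10 markers of activated B-cell-like DLBCL, were at 1 CPM or more in all 6 samples, the exception being CCND2. So were 8 of 10 markers of germinal-centre B-cell-like DLBCL, so this threshold does not tell the types apart. All 8 monocyte and macrophage markers were under 1 CPM in all 6 samples, and the summed T and NK cell markers were at 5.52 to 10.1 CPM in vector and 5.66 to 15 CPM in R58Q, with CD3G, CD2 and KLRD1 at 0. Mitochondrial messenger RNAs took a smaller share of the counts in R58Q (3.88 to 4.68%) than in vector (4.78 to 6.74%). In bulk RNA, fewer cells with a transcript and less of it per cell cannot be told apart.

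Similar numbers of genes were higher and lower in R58Q, but the increases were larger and sat on more abundant transcripts. Genes were called where the adjusted p was below 0.05 and the fold 1.5 or more. By this rule 632 genes (4.09% of those tested) were higher in R58Q than in vector and 546 (3.54%) were lower. Samples with the same number deviated together, and with the number as a block 740 were higher and 906 lower, and 629 of the 632 and 543 of the 546 were among them. Other scalings moved the balance: higher genes made up 53.7% of all calls here, 42.6% with total counts only and 41.2% with upper-quartile scaling. Leaving out 1 sample, here and below without the block, gave 474 to 634 higher and 245 to 614 lower genes. The lowest counts came without vector replicate 2 (474 and 245), and the number lower also fell by over 1.5 times without R58Q replicate 3 (272) and without vector replicate 3 (310).

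The higher genes were mostly protein coding (551 of 632, 87.2%), went from a median of 11.4 CPM to 29.2 CPM, and had a median absolute log2 fold change of 1.13. Of these, 360 changed at least 2-fold, 120 at least 4-fold and 45 at least 8-fold. The lower genes held fewer protein-coding members (307 of 546, 56.2%), went from a median of 5.23 CPM to 2.96 CPM, and had a median absolute change of 0.82. Only 166 of them changed at least 2-fold and 5 at least 4-fold. The median log2 fold change over all genes tested was -0.03. R58Q and vector values did not overlap in 622 of the genes called higher, 543 of those called lower and 5060 of 14257 not called.

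**Figure D1:**
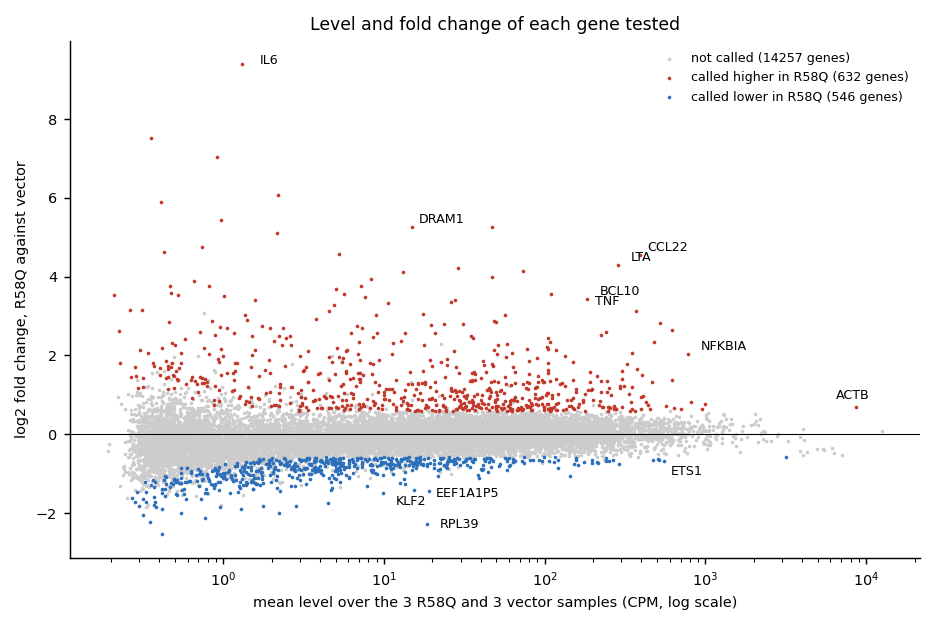
Each point is 1 of the 15435 genes tested, with its mean level over the 6 samples in CPM on a log axis and its log2 fold change in R58Q against vector on the vertical axis. The 632 genes called higher reach far larger changes than the 546 called lower, of which 5 changed at least 4-fold.

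Among genes at 1 CPM or more on average whose R58Q and vector values did not overlap, the 8 largest rises included IL6, ADIRF, DRAM1, CNTFR, LRRN3, CCL22 and LTA. IL6, the cytokine of the acute phase response, was at 0 in all 3 vector samples and at 3.07, 2.1 and 2.66 CPM in the R58Q samples. Against the 3 counts per library that a count of 0 allows, this was at least 28.5-fold higher. ADIRF, a gene first described in fat cells, rose from 0, 0.0611 and 0.118 CPM to 4.75, 2.61 and 5.57 CPM, and 93.5% of the 31-base words of its transcript also occur in another gene, so its reads are uncertain. DRAM1, a lysosomal membrane protein linked to autophagy, rose 38.3-fold, from 0.758 ± 0.0595 to 29.2 ± 10.7 CPM. CNTFR, the receptor chain for ciliary neurotrophic factor, rose from 0.118 ± 0.135 to 4.22 ± 2.3 CPM, and LRRN3, a neuronal leucine-rich repeat protein, rose from 0.419 ± 0.107 to 10.1 ± 2.8 CPM.

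By the change in mean CPM, the 5 largest rises were in ACTB, PLEK, NFKBIA, CD44 and CCL22. ACTB, cytoplasmic actin, went from 6705, 6645 and 6655 CPM to 10883, 10003 and 11270.4 CPM, which is 1.61-fold. PLEK, the leukocyte protein pleckstrin, went from 145, 191 and 173 CPM to 1109.7, 965 and 1121 CPM, a 6.28-fold rise. All 5 were ranked among called genes whose R58Q and vector values did not overlap, so the lack of overlap is not support. CD44, the hyaluronan receptor, rose 7.1-fold, from 129 ± 3.5 to 915 ± 190.4 CPM.

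Of 42 gene lists, 36 had at least 1 member called. Over all genes tested, 4.09% were called higher and 3.54% lower. At these shares many lists would hold a called gene, so this count marks no list. The interferon-stimulated genes had the highest median change (1.80) and mitochondrial-encoded messenger RNAs the lowest (-0.42), against -0.03 for all genes tested.

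**Figure D2:**
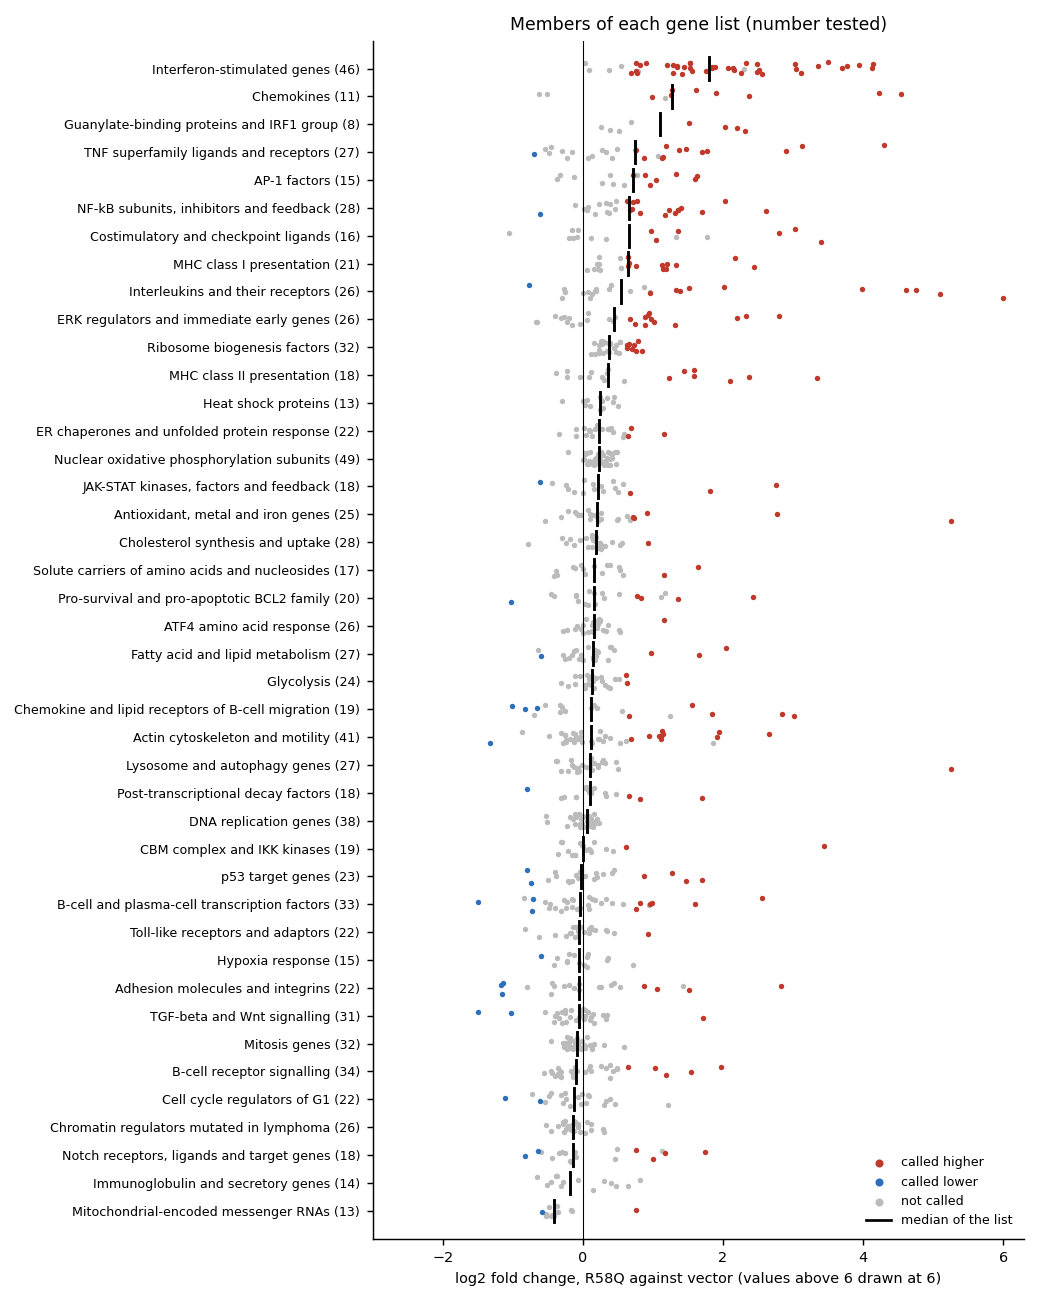
Each point is a tested member of 1 of 42 gene lists, placed by its log2 fold change in R58Q against vector, with the list's median as a bar and lists ordered by that median. Interferon-stimulated genes, chemokines and the IRF1 group lie to the right, and most lists of cell cycle, chromatin and metabolism genes sit near 0.

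The genes of the NF-kB system that rose included precursors, inhibitors and adaptors. Of 28 subunits, inhibitors and feedback genes tested, 15 were higher and 1 lower, with a median log2 fold change of 0.66 (all genes, -0.03). NFKBIA, which encodes the inhibitor IkBα, was at 329, 288 and 297 CPM in vector and at 1404, 1016 and 1310.2 CPM in R58Q. Every R58Q sample stood far above every vector sample, and the change was 2.03 ± 0.12 on the log2 scale (adjusted p = 4.93e-05). TRAF1, a signalling adaptor of TNF receptors, went from 57.6, 72.4 and 72.4 CPM to 411, 365 and 458 CPM, a 6.09-fold rise. NFKB2, the p100 precursor of the non-canonical pathway, rose 2.64-fold, from 165 ± 12 to 437 ± 35.9 CPM. NFKB1, the p105 precursor, rose by 1.17 ± 0.06 on the log2 scale, and the deubiquitinase TNFAIP3 (A20) by 1.36 ± 0.11. RELA and REL, which are among the transactivating subunits, were not called (0.07, adjusted p = 0.458, and -0.11, adjusted p = 0.435). ZC3H12C, an RNase of the regnase family, was called higher (1.70 ± 0.33, adjusted p = 0.0108) but not without vector replicate 2 (1.69, adjusted p = 0.0519).

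BCL3, an atypical IkB protein that binds p50 and p52, was the 1 member that fell. It was at 78.7, 71.9 and 67 CPM in vector and 54.1, 45.9 and 42.9 CPM in R58Q, a change of -0.61 ± 0.10 (adjusted p = 0.00482). The groups did not overlap, but the fold slipped under 1.5 without R58Q replicate 2 (-0.58), R58Q replicate 3 (-0.54) or vector replicate 1 (-0.53). The kinases and adaptors upstream changed little: of 19 tested members of the CBM complex and IKK list, 2 were higher, BCL10 and TAB2, and the median was 0.00. TAB2, an adaptor of the kinase TAK1, was near the fold limit (0.61 ± 0.08), and its call was lost without R58Q replicate 3 (0.56).

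The kB motif, on either strand of the 250 bases before the start, was in 5.05% of all 27305 promoters in the RefSeq table and in 5.97% of the 10322 tested genes that had a promoter there. Among genes called higher it was in 45 of 441 promoters (10.2%), among genes called lower in 13 of 267 (4.87%), and among genes not called in 5.8%. In the NF-kB list it was in 7 of 26 (26.9%). The ISRE letters were in 3.07% of all promoters, in 46 of the 441 of genes called higher (10.4%), in 2.62% of those called lower and in 2.19% of those not called. They were in 20 of 35 promoters of the interferon-stimulated genes (57.1%). A match shows only that the letters are in the window.

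Ligands of the TNF superfamily were among the most strongly raised genes. Of 27 ligands and receptors tested, 12 were higher and 1 was lower, with a median of 0.74. LTA, lymphotoxin alpha, was at 25.4, 28.3 and 29.6 CPM in vector and at 583, 426 and 630.1 CPM in R58Q, a 19.7-fold rise (4.30 ± 0.16, adjusted p = 1.22e-05). TNF went from 70.8, 76.6 and 82 CPM to 786, 559.7 and 658 CPM, which is 8.72-fold. In both genes every R58Q sample was far above every vector sample. CD40, the receptor for T-cell help, rose 3.41-fold, from 141, 156 and 142 CPM to 540.3, 452 and 508 CPM. TNFSF15 (TL1A), a low-level ligand, rose from 0.329 ± 0.00653 to 2.46 ± 1.39 CPM. The death receptor FAS, also a p53 target, rose 3.24-fold, from 1.54 ± 0.149 to 4.99 ± 1.09 CPM. CD27, a receptor of memory B cells, fell from 91.3, 71.3 and 72.7 CPM to 44.7, 52.9 and 47.7 CPM (-0.70 ± 0.11, adjusted p = 0.00408). Its groups did not overlap, but without vector replicate 1, its highest sample, the change was -0.56 and under 1.5-fold. Its ligand gene CD70 rose by 1.38 ± 0.18.

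Of 11 chemokines tested, 8 were higher and none was lower, with a median of 1.27. CCL22, a ligand of CCR4, was at 17, 51.6 and 28.5 CPM in vector and at 706, 589 and 965 CPM in R58Q, a 23.3-fold rise (4.54 ± 0.39, adjusted p = 0.000272). CCL17, the other CCR4 ligand, went from 2.76, 3.82 and 2.27 CPM to 72.6, 42.4 and 50.3 CPM, which is 18.7-fold. The ranges were apart in both. CX3CL1, the membrane-bound chemokine fractalkine, rose 5.15-fold. CCL5 was not called (1.17, adjusted p = 0.0897, or 0.032 with the replicate block), nor was CXCL16 (-0.51, adjusted p = 0.0173), whose change was under 1.5-fold.

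Among interleukins and their receptors, 10 of 26 were higher and 1 lower, with a median of 0.54. EBI3, the beta chain shared by IL-27 and IL-35, was at 6.02, 5.71 and 4.97 CPM in vector and at 96.6, 72.4 and 96.1 CPM in R58Q (3.99 ± 0.14, adjusted p = 1.22e-05). The alpha chain IL27 went from 0.0296 ± 0.0297 to 0.826 ± 0.228 CPM, and IL12B, the p40 subunit, from 0.0496 ± 0.0165 to 1.43 ± 0.884 CPM, both at very low levels. IL10 was not tested, with 0 to 0.265 CPM in all 6 samples. The receptor chain IL13RA1 fell from 11.7, 12 and 12.3 CPM to 7.58, 6.95 and 6.52 CPM, a 1.71-fold drop (-0.77 ± 0.11, adjusted p = 0.00249). Its 2 groups were tight and well apart.

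Of 18 JAK-STAT genes tested, 3 (16.7%) were higher and 1, BCL3, was lower (5.56%), with a median of 0.21. Over all genes tested, 4.09% were higher and 3.54% lower. SOCS3, an inhibitor of gp130 receptors, went from 1.42, 1.5 and 2.3 CPM to 9.87, 6.48 and 19 CPM (2.76 ± 0.40, adjusted p = 0.00306). STAT5A rose 3.51-fold, from 46.6 ± 4.95 to 164 ± 21.6 CPM. STAT3 passed the adjusted p (0.00155) at a change of 0.50 ± 0.06, under 1.5-fold. The kinase gene PIM2 was called higher (0.67 ± 0.17, adjusted p = 0.0255), a call lost without R58Q replicate 1 (0.46) or without R58Q replicate 3, vector replicate 2 or vector replicate 3 (adjusted p = 0.056 to 0.101).

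Interferon-stimulated genes were the list with the most members called. Many of their calls were lost when 1 sample was left out of the fit without the replicate block. With the block and all samples, 42 members were called. Of 46 tested, 40 were higher and none was lower, with a median of 1.80. MX1, an antiviral GTPase, was at 87.2, 161 and 226 CPM in vector and at 405, 1149 and 835 CPM in R58Q (2.33 ± 0.42, adjusted p = 0.00766). Replicate 1 was the lowest sample in both groups, and the groups did not overlap. The summed level of the 46 genes showed the same: it was 994, 1388 and 1567 CPM in vector replicates 1 to 3, 2283, 5607 and 3974 CPM in R58Q, and 1461, 4518 and 2669 CPM in S136X. Within each replicate number R58Q exceeded vector.

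IFI44L, an antiviral protein, had the largest fold of the list. It was at 2.17, 10.5 and 11 CPM in vector and at 22.8, 239 and 154 CPM in R58Q, a 17.6-fold rise (4.14 ± 0.84, adjusted p = 0.0124). All R58Q samples were above all vector samples, with wide spread in both groups. Without vector replicate 2 the change was 4.41 with an adjusted p of 0.0528. Under the same omission ISG15, a ubiquitin-like modifier (1.85 ± 0.39), had an adjusted p of 0.0606, IFIT1, a sensor of viral RNA caps (3.94 ± 0.85), one of 0.0693, and XAF1 (4.12 ± 1.01), an apoptosis-associated factor, one of 0.0979. In all, 16 members were called without vector replicate 2, 28 to 30 without R58Q replicate 2, R58Q replicate 3 or vector replicate 1, 33 without vector replicate 3, 44 without R58Q replicate 1, and 42 with the replicate block. Of 8 genes in the list of IRF1 and guanylate-binding proteins, 4 were higher and none lower, and all 4 kept their call in every omission. IRF1 was at 16.6, 20.3 and 22.4 CPM in vector and at 89.6, 89.2 and 63.5 CPM in R58Q (2.03 ± 0.16, adjusted p = 0.000141). SOCS1 rose 4.58-fold and CXCL10 4.96-fold, and GBP1 was at 0 in vector and at 0.303, 0.301 and 0.245 CPM in R58Q, too low to be tested.

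Genes of antigen presentation rose at their regulators and at the presenting molecules. CIITA, the master regulator of MHC class II genes, was at 71.3, 78.2 and 88.8 CPM in vector and at 183, 182 and 193 CPM in R58Q, a 2.34-fold rise (1.23 ± 0.08, adjusted p = 8.41e-05). Of 18 class II genes tested, 7 were higher and none lower, with a median of 0.35, and 5 were higher without vector replicate 2. HLA-DRA went from 79.3, 94.3 and 112 CPM to 221, 324 and 314 CPM, and HLA-DQA1 from 1.89 ± 1.53 to 19.1 ± 9.3 CPM. HLA-DRB1 (2.10 ± 0.43) and HLA-DRB5 (2.37 ± 0.47) lost their calls without vector replicate 2 (adjusted p = 0.0607 and 0.055). These are paralogs, and 24.6% and 19.4% of their 31-base words also occur in another gene, so the split of reads between them is uncertain.

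NLRC5, the class I counterpart of CIITA, rose 2.28-fold, from 53.4 ± 3.34 to 122 ± 10.8 CPM. Of 21 class I genes, 11 were higher and none lower, with a median of 0.64, and 7 were higher without vector replicate 2. TAP1, the peptide transporter, was at 31.1, 36.7 and 47.1 CPM in vector and at 133, 223 and 159.9 CPM in R58Q (2.16 ± 0.21, adjusted p = 0.000481). HLA-E rose 2.51-fold. B2M, the light chain of class I molecules, rose by 0.65 ± 0.14 (adjusted p = 0.0134), and was not called without R58Q replicate 2 (0.55) or vector replicate 2 (adjusted p = 0.0603).

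Costimulatory ligands rose too, 6 of 16 tested, with a median of 0.65. None was lower, or 1 with the replicate block. CD80, a ligand of CD28, was at 3.12, 5.13 and 6.03 CPM in vector and at 51.9, 41.9 and 56.7 CPM in R58Q, a 10.5-fold rise (3.40 ± 0.22, adjusted p = 6.21e-05). SLAMF7 rose 8.15-fold, CD58, the ligand of CD2, 6.96-fold and CD86 2.56-fold. CD274 (PD-L1) was just past the threshold (1.05 ± 0.32, adjusted p = 0.0483), from 3.69 ± 1.2 to 7.63 ± 2.6 CPM, and its call held in 1 of the 6 fits that left out a sample.

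Adhesion and migration genes moved both ways. Of 22 adhesion molecules, 4 were higher and 3 lower, with a median of -0.06. ICAM1, the ligand of LFA-1, was at 205, 199.6 and 219 CPM in vector and at 607, 582 and 589 CPM in R58Q (1.51 ± 0.06, adjusted p = 1.76e-05), with replicates within each group almost level. CD82, a tetraspanin, rose 2.08-fold. SELPLG, which encodes the selectin ligand PSGL-1, went from 7.27, 6.51 and 7 CPM to 3.54, 3.31 and 2.6 CPM, a 2.21-fold fall (-1.14 ± 0.16, adjusted p = 0.00239). The other members called lower, ITGA6 (-1.17 ± 0.35, adjusted p = 0.0457) and JAML (-1.15 ± 0.34, adjusted p = 0.0434), were at about 1 CPM or less and each kept its call in 1 of the 6 omissions. The number lower was 1 without vector replicate 2 or 3 and 2 without any of the other samples.

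Among 19 receptors of B-cell migration, 5 were higher and 3 lower, with a median of 0.12. CCR7, which guides cells to T-cell zones, was at 26.1, 29 and 48.3 CPM in vector and at 115, 103 and 155 CPM in R58Q (1.85 ± 0.24, adjusted p = 0.00195). PTGER4, a prostaglandin E2 receptor, rose 7.18-fold, from 12.2 ± 3.59 to 87.6 ± 15.2 CPM, and GPR132 8.1-fold, from 0.299 ± 0.05 to 2.45 ± 0.387 CPM. S1PR1, the receptor for egress from lymphoid tissue, went from 12.1, 12.8 and 11.4 CPM to 4.89, 7.62 and 5.57 CPM, a 2.01-fold fall (-1.01 ± 0.17, adjusted p = 0.00535). No R58Q sample reached the lowest vector sample. CXCR4 (-0.66 ± 0.20, adjusted p = 0.0455) and PTAFR (-0.83 ± 0.20, adjusted p = 0.0236) were also called lower, but CXCR4 lost its call in 5 of 6 omissions (adjusted p = 0.0619 to 0.137) and PTAFR in 4 (adjusted p = 0.0613 to 0.0796). The number lower was 1 without R58Q replicate 3, vector replicate 1 or vector replicate 2, and otherwise 2.

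KLF2, a quiescence and homing factor that activates S1PR1, showed the largest fall of the transcription factors listed. It was at 16.1, 14.1 and 13.7 CPM in vector and at 4.68, 6.35 and 4.5 CPM in R58Q, a 2.83-fold fall (-1.50 ± 0.15, adjusted p = 0.000637). The highest R58Q sample was below 7 CPM and the lowest vector sample above 13. Of 33 B-cell and plasma-cell factors, 6 were higher and 3 lower (5 lower with the replicate block), with a median of -0.04. IRF4, a factor of activated B cells, rose 1.69-fold, from 737 ± 59.8 to 1247 ± 121 CPM, and BCL6, the repressor of germinal-centre cells, 1.98-fold, from 173 ± 27.1 to 344 ± 40.2 CPM. AIRE, the autoimmune regulator, rose from 3.06, 2.11 and 2.65 CPM to 23.6, 9.92 and 12.8 CPM (2.56 ± 0.32, adjusted p = 0.00174). POU2AF1, the B-cell coactivator OCA-B, fell from 236, 262 and 237 CPM to 132, 181 and 131 CPM (-0.73 ± 0.13, adjusted p = 0.0061), with no overlap. IKZF2 (Helios) fell from 54.3, 57 and 55.7 CPM to 26.9, 41 and 33.8 CPM (-0.72 ± 0.13, adjusted p = 0.0082), and without R58Q replicate 1 by -0.56, under 1.5-fold.

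Of 34 B-cell receptor components tested, 5 were higher (14.7%, against 4.09% of all genes) and none lower, with a median of -0.10. Without R58Q replicate 3, 3 were higher. FCRL2, an Fc receptor-like inhibitor, rose 3.9-fold, from 23.5 ± 10.8 to 91.6 ± 20.8 CPM, and RASGRP1, a Ras exchange factor, 2.91-fold. RASGRP3 was called higher (1.19 ± 0.26, adjusted p = 0.0157), but not without R58Q replicate 3 (adjusted p = 0.0542), and FCRL5 lost its call in 5 of 6 omissions. CD79A and CD79B had log2 fold changes of -0.35 (adjusted p = 0.0466) and -0.31 (adjusted p = 0.13), neither reaching 1.5-fold. None of 14 immunoglobulin and secretory genes was called by edgeR or DESeq2 (1 higher with the replicate block, 1 lower without R58Q replicate 2), although 6 had an unadjusted p under 0.05, and the median was -0.18. IGHM was at 6193 ± 576 CPM in vector and 4733 ± 371 CPM in R58Q (-0.39, adjusted p = 0.0288).

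**Figure D3:**
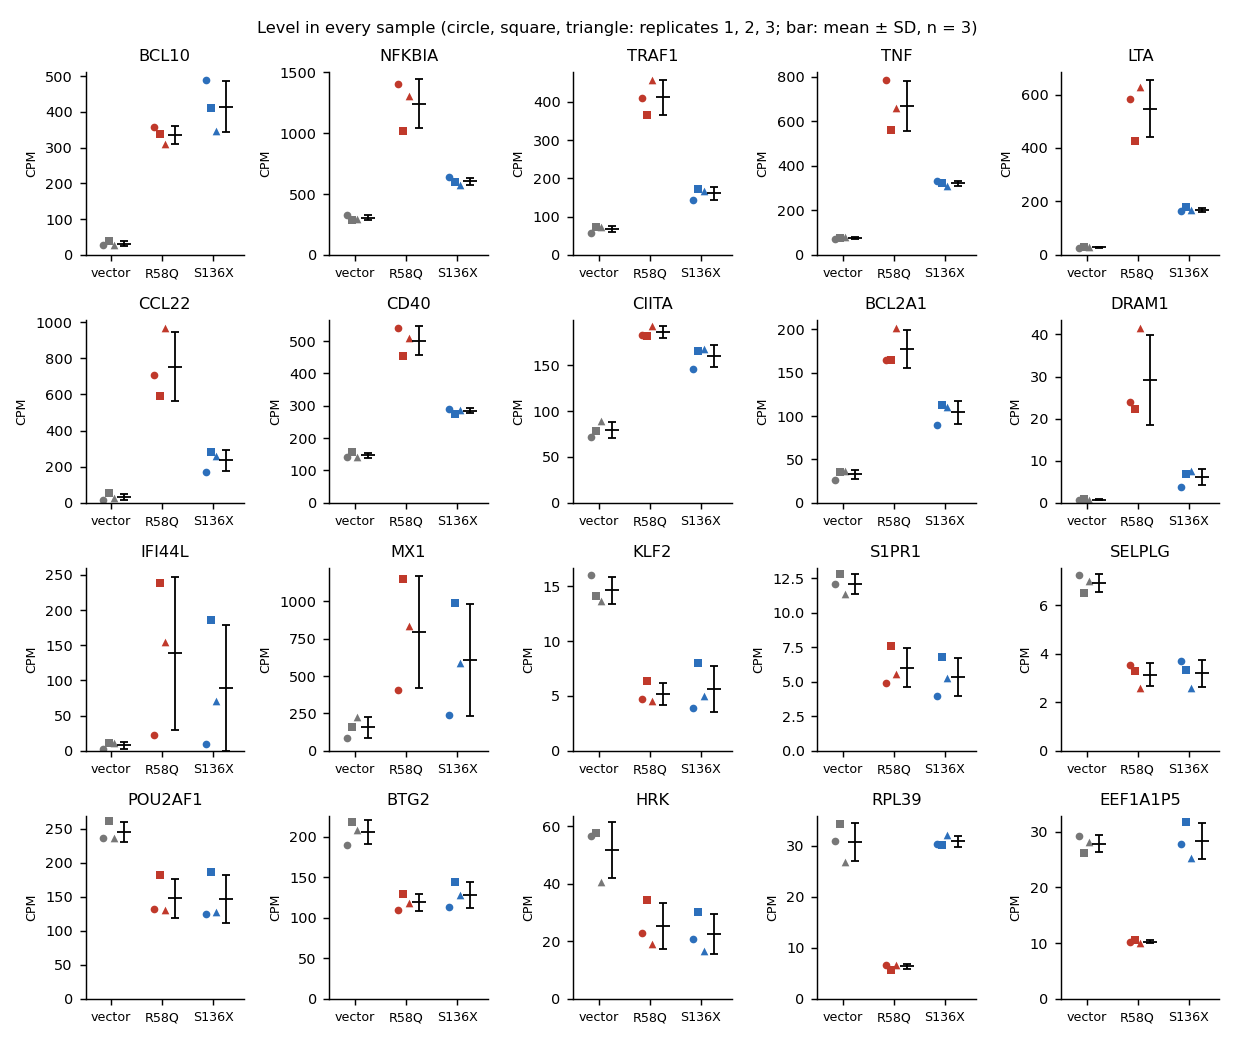
Level in CPM of 20 genes in the 9 samples, vector, R58Q and S136X from left to right, with a marker shape for each replicate number and the mean ± SD (n = 3) beside each group. NFKBIA, TRAF1, TNF, LTA and CCL22 lie highest in R58Q and between in S136X, KLF2, S1PR1, SELPLG and POU2AF1 lie lower than vector in both mutants, and RPL39 and EEF1A1P5 lie lower in R58Q and level with vector in S136X.

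Early response genes downstream of kinase signalling rose. Of 26 ERK regulators and immediate early genes, 12 were higher and none lower (1 lower with the replicate block), with a median of 0.45. MAP3K8 (TPL2), a kinase that links IKK to ERK, was at 34, 35.9 and 36.8 CPM in vector and at 202, 138 and 198 CPM in R58Q, a 5.03-fold rise. SGK1, a kinase activated by PI3K signals, went from 2.85, 7.33 and 7.59 CPM to 44.7, 37.3 and 41.8 CPM, which is 6.95-fold. Both had groups far apart. The phosphatase DUSP2 rose 2.01-fold and IER3 2.49-fold. Of 15 AP-1 factors, 7 were higher and none lower, with a median of 0.71, and 4 were higher without vector replicate 2. JUNB rose from 40.6, 44 and 48.5 CPM to 95.5, 116 and 122 CPM (1.33 ± 0.11, adjusted p = 0.000165), FOSL1 3.08-fold and JUN 1.84-fold. BATF3 rose (adjusted p = 0.0122) from 0.587 ± 0.0642 to 1.78 ± 0.734 CPM, with an adjusted p of 0.0578 without vector replicate 2.

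Notch genes were split, 4 of 18 higher and 2 lower, with a median of -0.14. NOTCH2, a receptor of marginal-zone B cells, rose 2-fold, from 62.4, 61.6 and 78.9 CPM to 133, 109.9 and 164 CPM. MAML2, a coactivator, rose 3.36-fold and DTX4 2.26-fold. DTX1, a Deltex family gene, was at 689.8, 630.4 and 558 CPM in vector and at 429.9, 433 and 337 CPM in R58Q (-0.65 ± 0.12, adjusted p = 0.00711), and it was under 1.5-fold without R58Q replicate 3 (-0.54) or vector replicate 1 (-0.56). The ligand JAG1 (-0.83 ± 0.23, adjusted p = 0.0354) lost its call in 4 of 6 omissions (adjusted p = 0.0766 to 0.112). No Notch gene was lower without R58Q replicate 3 or vector replicate 1, 1 was without R58Q replicate 2 or vector replicate 2, and 3 were without R58Q replicate 1. HES1, a classical Notch target, was not called (-0.16, adjusted p = 0.659).

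In the BCL2 family, 4 of 20 were higher and 1 lower, with a median of 0.16, and both protective and pro-death members rose. BCL2A1, a protective member, was at 26.4, 35.7 and 36.2 CPM in vector and at 165, 165 and 202 CPM in R58Q, a 5.4-fold rise (2.43 ± 0.14, adjusted p = 4.56e-05). BCL2L1 (BCL-XL) rose 2.55-fold, from 137 ± 8.73 to 349 ± 24.3 CPM. The BH3-only gene PMAIP1 (NOXA) rose 1.77-fold and BID by 0.78 ± 0.07. BCL2 passed the adjusted p (0.00569) at 0.51 ± 0.09, under 1.5-fold. HRK, another BH3-only gene, went from 56.6, 57.7 and 40.4 CPM to 22.7, 34.4 and 18.9 CPM, a 2.04-fold fall (-1.03 ± 0.22, adjusted p = 0.0144). Its groups did not overlap, and without vector replicate 2 the change was -0.94 with an adjusted p of 0.0657.

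Genes that p53 can induce moved both ways, with a median of -0.03. Of 23 tested, 4 (17.4%) were higher and 2 (8.7%) lower, against 4.09% and 3.54% of all genes. AEN, a nuclease, rose 2.77-fold, from 48 ± 2.36 to 133 ± 18.8 CPM. CDKN1A and MDM2, the best known targets, were not called (-0.07, adjusted p = 0.698, and 0.21, adjusted p = 0.0772). BTG2, an antiproliferative factor that promotes RNA deadenylation, was at 189.7, 218 and 208 CPM in vector and at 109, 129 and 118 CPM in R58Q, a 1.73-fold fall (-0.79 ± 0.08, adjusted p = 0.000667). TP53INP1 (-0.74 ± 0.21, adjusted p = 0.0402) and TP73 (1.28 ± 0.31, adjusted p = 0.0219) lost their calls in 4 and 3 of 6 omissions (adjusted p = 0.06 to 0.147 and 0.0583 to 0.0851).

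Genes of cell division were hardly among the calls. None of 38 DNA replication genes was called by edgeR or DESeq2 (8 had an unadjusted p under 0.05, and 1 was lower with upper-quartile scaling and without R58Q replicate 2), with a median of 0.06. None of 32 mitosis genes was called by edgeR (7 had an unadjusted p under 0.05, and 1 was higher with DESeq2 and with the replicate block), with a median of -0.08. MCM2 was at 475 ± 34.1 CPM in vector and 469 ± 48.5 CPM in R58Q, and MKI67 at 1145 ± 94.9 and 998 ± 97.7 CPM (-0.20, adjusted p = 0.167). MYC was at 254 ± 17.8 and 249 ± 7.65 CPM. Of 22 G1 regulators none was higher (1 with the block) and 2 were lower, CDKN2B (-1.11 ± 0.26, adjusted p = 0.0193), at about 1 CPM, and MXD3 (-0.62 ± 0.10, adjusted p = 0.00502). Without R58Q replicate 3, MXD3 was at -0.53 and under 1.5-fold, and CDKN2B held its call in 3 of 6 omissions.

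Ribosome biogenesis factors shifted together by small amounts. All 32 had a higher fitted level in R58Q, also with total counts only and with upper-quartile scaling, and 8 were called, with a median of 0.38. POLR1C, a subunit of RNA polymerases I and III, was at 20.2, 21.4 and 22.1 CPM in vector and at 39.7, 37.4 and 37.6 CPM in R58Q (0.85 ± 0.07, adjusted p = 0.000207). NOP16 rose 1.69-fold and NOP2 1.73-fold. NCL and NPM1, the abundant nucleolar proteins, were not called (0.22, adjusted p = 0.0692, and 0.26, adjusted p = 0.053). In S136X the list's median against the same vector samples was 0.37.

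Genes of oxidative phosphorylation differed in direction between the nuclear and the mitochondrial genome. None of 49 nuclear subunits was called by edgeR or DESeq2 (30 had an unadjusted p under 0.05), but 48 had a higher fitted level, with a median of 0.23, and 42 and 41 did with total counts only and upper-quartile scaling. Their summed level was 5731, 5161 and 5205 CPM in vector and 6567, 6307 and 5892 CPM in R58Q. Of the 13 mitochondrial messenger RNAs, 12 had a lower fitted level, under all 3 scalings, with a median of -0.42. Their sum was 46995, 66301 and 60472 CPM in vector and 43924, 38898 and 47129.9 CPM in R58Q, which overlap. In S136X the medians against vector were 0.06 and -0.11.

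Single mitochondrial genes were near the limit of a call. MT-ND2, a complex I subunit, was at 3435, 4532 and 3539 CPM in vector and at 2838, 2140.0 and 2684 CPM in R58Q (-0.59 ± 0.14, adjusted p = 0.0218). It lost its call without R58Q replicate 2 (-0.47), R58Q replicate 3 (adjusted p = 0.0562) or vector replicate 2 (-0.45), while 5 of the 13 were called lower without vector replicate 1. MT-ND6, the 1 messenger RNA on the light strand, was called higher (0.75 ± 0.20, adjusted p = 0.0315), from 329 ± 49.8 to 554 ± 162 CPM, and lost its call in 5 of 6 omissions.

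Of 25 antioxidant, metal and iron genes, 5 were higher (20%, against 4.09% of all genes) and none lower, with a median of 0.20. MT2A, a metallothionein, rose 6.82-fold, from 4.99 ± 1.41 to 34.1 ± 6.75 CPM, and TXN, thioredoxin, 1.88-fold. SOD2, often used as an NF-kB target, was at 22.4 ± 0.607 and 24.1 ± 2.09 CPM (0.10, adjusted p = 0.42), and NQO1 at 3.1 ± 0.238 and 3.34 ± 0.645 CPM. Of 27 lipid metabolism genes, 3 were higher and 1 lower (2 lower with the block), with a median of 0.15. MGLL, monoacylglycerol lipase, was at 191, 179 and 173 CPM in vector and at 619.9, 518 and 581 CPM in R58Q, a 3.16-fold rise. CD36 (2.04 ± 0.43), PTGS1 (0.97 ± 0.26) and ALOX5 (-0.60 ± 0.14) were called, and CD36 had an adjusted p of 0.0544 without vector replicate 2, while PTGS1 and ALOX5 each lost their calls in 4 of 6 omissions.

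SLC43A3, a purine transporter, rose 3.12-fold and SLC3A2, the heavy chain of amino acid transporters, 2.24-fold, the 2 of 17 listed solute carriers called. Its partner SLC7A5 was at 366 ± 74.4 and 367 ± 58.7 CPM. ALDOA (0.63 ± 0.08) and SLC16A1 (0.62 ± 0.07) were the 2 glycolysis genes of 24 called, and both dropped under 1.5-fold with total counts only (0.57 and 0.56) and without 1 vector sample, ALDOA without vector replicate 2 (0.58) and SLC16A1 without vector replicate 3 (0.58). CYP51A1 was the 1 of 28 cholesterol genes called higher (0.93 ± 0.13), with 1 lower under the block, and ADM (-0.60 ± 0.12) the 1 of 15 hypoxia genes called, lower, with 1 higher under the block. These are 3.57% and 6.67% of their lists, against 4.09% of all genes tested called higher and 3.54% called lower. ADM was not called without R58Q replicate 2 (-0.50), R58Q replicate 3 (adjusted p = 0.0508) or vector replicate 1 (-0.51). In CYP51A1 89.9% and in ALDOA 58.9% of the transcript's 31-base words also occur in another gene, so their reads are uncertain.

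Of 22 ER chaperone and unfolded protein response genes, 3 were higher (5 with the replicate block) and none lower, with a median of 0.23. PPP1R15A (GADD34), which restores translation after stress, was at 119, 119 and 130.3 CPM in vector and at 297, 252 and 270.2 CPM in R58Q (1.15 ± 0.08, adjusted p = 7.52e-05). HERPUD1 rose 1.57-fold. SEC61B rose by 0.68 ± 0.12, and by 0.54, under 1.5-fold, without R58Q replicate 1. SLC3A2 was the 1 of 26 genes of the ATF4 amino acid response called, and ATF4 and ASNS had changes of 0.24 (adjusted p = 0.0475) and -0.02 (adjusted p = 0.935). No heat shock gene of 13 was called by edgeR or DESeq2, although 7 had an unadjusted p under 0.05. DRAM1 was the 1 of 27 lysosome and autophagy genes called, and LAMP1 and TFEB were at 0.11 (adjusted p = 0.276) and -0.18 (adjusted p = 0.106). The share called higher was 3.85% in the ATF4 list and 3.7% in the lysosome list, near the 4.09% of all genes tested.

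Of 41 actin cytoskeleton genes, 10 were higher and 1 lower (2 with the block), with a median of 0.11. Beside ACTB and PLEK, TRIP10, a membrane-bending adaptor, rose 3.83-fold, from 37.3 ± 1.58 to 143 ± 15.1 CPM, and SYNPO, an actin-associated protein, 3.77-fold. ACTG1, the other cytoplasmic actin, was at 1889 ± 62.9 and 2479.9 ± 153 CPM (0.39, adjusted p = 0.0105), under 1.5-fold. LRRC32, which holds latent TGF-beta at the cell surface, rose 3.29-fold, and SMAD6, an inhibitor in that pathway, fell from 9.71, 6.78 and 6.83 CPM to 4.41, 4.38 and 2.72 CPM (-1.02 ± 0.23, adjusted p = 0.0165), with WNT2B the other of 2 lower genes among 31. ZFP36L1, an RNA decay factor, rose 1.77-fold. TLR7 was the 1 of 22 Toll-like receptor genes called (0.93 ± 0.23, adjusted p = 0.0248), with 2 lower under the block, and it lost its call without any of vector replicates 1, 2 or 3 (adjusted p = 0.0602, 0.0879 and 0.059). It made up 4.55% of that list, near the 4.09% of all genes tested that were called higher. None of 26 chromatin regulators mutated in lymphoma was called by edgeR with TMM or by DESeq2 (13 had an unadjusted p under 0.05, and 1 was lower with total counts only and with upper-quartile scaling), with a median of -0.14. EZH2 was at 0.29 (adjusted p = 0.0299) and KMT2D at -0.04 (adjusted p = 0.67).

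RPL39, a small protein of the large ribosomal subunit, had the largest fall among genes at 1 CPM or more whose groups did not overlap. It was at 30.9, 34.3 and 26.8 CPM in vector, at 6.67, 5.68 and 6.64 CPM in R58Q and at 30.2, 30.1 and 32.2 CPM in S136X. The R58Q samples lay 4.85-fold below vector (-2.28 ± 0.12, adjusted p = 3.71e-05), and S136X and vector overlapped. Of 83 cytosolic ribosomal protein genes tested, RPL39 was the 1 called lower (1.2%), 4 were higher (4.82%), and the median was 0.24. Over all genes tested, 3.54% were lower and 4.09% higher.

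The next largest falls were in DBH, NPIPB12, the long non-coding AC007569.1, CDHR3, the pseudogene PTMAP2, KLF2 and KIAA1614. DBH, dopamine beta-hydroxylase, went from 5.52, 3.06 and 2.03 CPM to 1.52, 0.668 and 0.489 CPM (3.99-fold lower, adjusted p = 0.0222), and lost its call in 4 of 6 omissions (adjusted p = 0.0509 to 0.0741). CDHR3, a cadherin-related protein, fell 3.52-fold, from 4.24, 2.02 and 2 CPM to 1.01, 0.635 and 0.704 CPM, and KIAA1614 2.81-fold. Among abundant genes, the 5 largest falls in mean CPM were in MT-ND2, ALDH5A1, DTX1, PLEKHA2 and ETS1. ETS1, a lymphoid transcription factor, was at 655, 641 and 555 CPM in vector and at 405, 447 and 342 CPM in R58Q (-0.63 ± 0.11, adjusted p = 0.00595). ALDH5A1, a mitochondrial dehydrogenase, was at 685 ± 57.3 and 425 ± 68 CPM (-0.69 ± 0.12), and PLEKHA2, a phosphoinositide-binding adaptor, at 574 ± 48.7 and 367 ± 38.8 CPM (-0.65 ± 0.10). The ranking took only genes with groups apart. ETS1, ALDH5A1 and PLEKHA2 each dropped under 1.5-fold without R58Q replicate 3 (-0.53, -0.58 and -0.57). ETS1 and PLEKHA2 also did so without vector replicate 1 (-0.58 and -0.57).

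Some of the genes called lower had near copies elsewhere in the genome. Of 535 genes called lower that had a transcript to compare, 96 (17.9%) shared at least 50% of their 31-base words with another gene, against 8.12% of all genes tested. Processed pseudogenes, copies of spliced messenger RNAs, made up 460 of the genes tested, of which 71 (15.4%) were lower and 12 higher in R58Q, with a median of -0.37. The number lower depended on the fit: DESeq2 gave 44, the replicate block 106, and total counts only or upper-quartile scaling 92. It also depended on single samples: omitting R58Q replicate 3 gave 23, omitting R58Q replicate 2 gave 40, and omitting vector replicate 2 or 3 gave 24 or 30. Against the same vector samples their median in S136X was 0.04. Their summed level was 1037, 1042 and 1017 CPM in vector, 882, 857 and 804 CPM in R58Q, and 1077, 1037 and 985 CPM in S136X. Every R58Q sum was below every other. Reads of such copies can also align to the parent gene, so their counts are uncertain.

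Genes were then grouped by the share of their 31-base words that also occur in another gene. Of processed pseudogenes, the percentage called lower was 3.7% of 81 with under 10% shared, 11.9% of 176 with 10 to under 50%, 19.6% of 168 with 50 to under 90%, and 40% of 35 with 90% or more. Leaving out 1 sample gave 0 to 3, 7 to 19, 7 to 28 and 6 to 11 genes lower in these groups, against 3, 21, 33 and 14 with all samples, and 2, 8, 7 and 6 without R58Q replicate 3. The medians in R58Q were -0.21, -0.35, -0.43 and -0.60, and in S136X -0.16, 0.09, 0.06 and 0.09. Protein-coding genes did not show the same order: 2.76% of 9009 were lower with under 10% shared, 1.65% of 2544 with 10 to under 50%, 0.857% of 467 with 50 to under 90%, and 10.4% of 115 with 90% or more. Parent genes did not follow: for 55 pseudogenes called lower, with a median of -1.10, the 46 tested parents had a median of -0.03, and 2 of them were called lower.

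**Figure D4:**
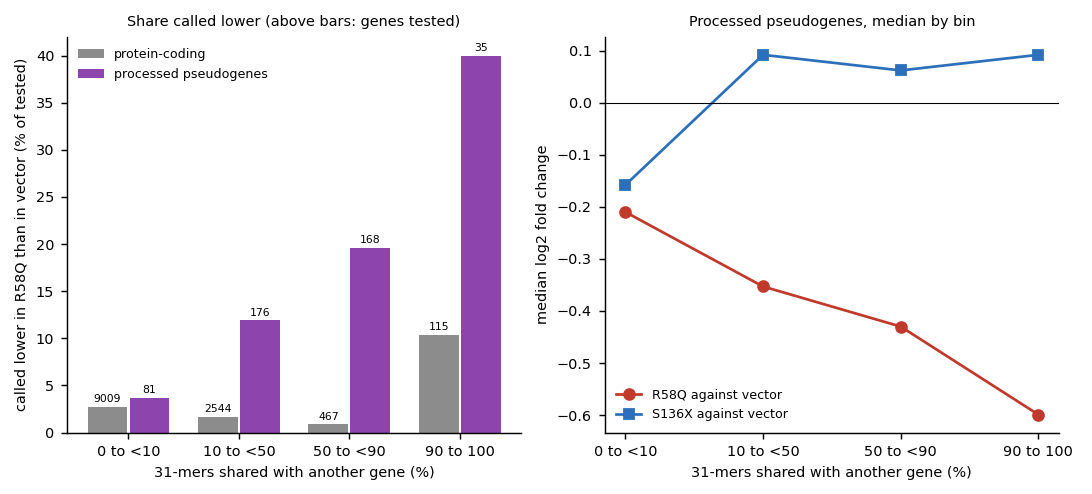
Left, the percentage of genes called lower in R58Q than in vector by the share of their 31-base words found in another gene, for protein-coding genes (grey) and processed pseudogenes (purple), with the number tested above each bar. Right, the median log2 fold change of processed pseudogenes in the same bins for R58Q and S136X against the same vector samples, which goes from -0.21 to -0.60 in R58Q and from -0.16 to 0.09 in S136X.

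EEF1A1P5, a copy of the elongation factor gene EEF1A1, shows how close such pairs are. Over 1389 compared bases of the coding sequence the copies differed at 4, an identity of 99.7%. The 90 bases around one of these differences, bases 249 to 338 of the coding sequence, are printed with the differing base in capitals.
EEF1A1: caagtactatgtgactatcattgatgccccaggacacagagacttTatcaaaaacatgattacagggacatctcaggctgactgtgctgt
EEF1A1P5: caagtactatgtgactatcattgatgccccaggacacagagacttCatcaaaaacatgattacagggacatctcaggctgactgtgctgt

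EEF1A1P5 was at 29.3, 26.2 and 28.1 CPM in vector, at 10.2, 10.5 and 9.94 CPM in R58Q and at 27.9, 31.8 and 25.3 CPM in S136X. The R58Q samples were at about the same level as each other and far below the 6 others (-1.45 ± 0.08, adjusted p = 4.56e-05). EEF1A1 itself was at 4282 ± 109 CPM in vector and 3906 ± 161 CPM in R58Q (-0.14, adjusted p = 0.235). PTMAP2, a copy of the prothymosin gene, went from 6.92 ± 0.195 to 2.08 ± 0.328 CPM, with PTMA at -0.07 (adjusted p = 0.656). PPIAP22 went from 53.3 ± 3.48 to 24.8 ± 2.12 CPM, with its parent PPIA at -0.30 (adjusted p = 0.0373), under 1.5-fold. All 9 tested genes of the NPIPA and NPIPB family, a set of recent segmental duplications, had a lower fitted level, 4 of them called, with a median of -0.58. NPIPB12 went from 1.81, 2.05 and 2.24 CPM to 0.573, 0.601 and 0.459 CPM.

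The mutants were then compared with each other, to see where R58Q differed from S136X. Of 15195 genes tested, 41 (0.27%) were higher in R58Q than in S136X and 25 (0.165%) lower. All 41 were also called higher than vector, and 20 of the 25 lower than vector. Both tests use the same R58Q samples, so this overlap is not independent support. With the replicate block 206 and 240 were called. The counts without the block rested on single samples: without S136X replicate 3, 1 and 4 were left, and without R58Q replicate 3, 10 and 7. Comparisons of either mutant with vector share the vector samples, so values are given side by side.

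The 41 genes above S136X held NF-kB feedback genes and TNF ligands, whose levels in S136X lay between vector and R58Q. NFKBIA was at 638, 597 and 576 CPM in S136X against 1404, 1016 and 1310.2 CPM in R58Q, a difference of 1.03 ± 0.12 (adjusted p = 0.0138). TRAF1 was at 142, 173 and 167 CPM in S136X and 1.35 ± 0.11 higher in R58Q (adjusted p = 0.00419). LTA was at 163, 178 and 167 CPM in S136X and 1.68 ± 0.14 higher in R58Q (adjusted p = 0.00419). No R58Q sample of these 3 genes reached down to the S136X samples. TNF (1.05 ± 0.11), CD40 (0.81 ± 0.07), CD80 (1.22 ± 0.13), EBI3 (1.13 ± 0.12), PLEK (0.82 ± 0.08) and STAT5A (0.90 ± 0.11) were also higher in R58Q, with adjusted p from 0.00634 to 0.0154. DRAM1 was 2.24 ± 0.32 higher in R58Q than in S136X (adjusted p = 0.0333). The microRNA host genes MIR155HG and MIR17HG rose 2.43 ± 0.16 and 0.98 ± 0.14 over vector, and were 1.02 ± 0.12 and 0.67 ± 0.09 above S136X (adjusted p = 0.0154 and 0.0277).

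A few genes were close to vector in S136X and raised in R58Q. IL6 was at 0.0683, 0.062 and 0.0702 CPM in S136X, and 5.20 ± 0.31 higher in R58Q on the fitted log2 scale (adjusted p = 0.00162), a difference that rests on 2 counts in each S136X library. HAPLN3, a link protein of the extracellular matrix, was at 3.99 ± 0.0707 CPM with the vector, 5.19 ± 0.212 CPM with S136X and 14.7 ± 1.52 CPM with R58Q (1.49 ± 0.12, adjusted p = 0.00413). BIRC2, an inhibitor of apoptosis protein, was at 44.7 ± 2.47, 48 ± 4.64 and 73.2 ± 2.72 CPM in the same order (0.60 ± 0.08, adjusted p = 0.0242).

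Interferon-stimulated genes were called between the mutants only when the replicate numbers were matched. Their summed level was higher in R58Q than in S136X within each number (2283 against 1461, 5607 against 4518 and 3974 against 2669 CPM). Without the block none of the 46 was called by edgeR or DESeq2 (1 had an unadjusted p under 0.05), and with it 21 were called, all higher in R58Q. MX1 differed by 0.38 (adjusted p = 0.883) without the block and, with it, by 0.47 (adjusted p = 3.99e-05), under 1.5-fold. IRF1 was called with the block too (adjusted p = 2.03e-07). Other lists gained calls above S136X with the block: the IRF1 group went from 0 to 3 (2 with DESeq2), class I genes from 1 to 4, migration receptors from 1 to 5 and interleukins and their receptors from 3 to 7. Of genes called lower than vector in R58Q, 5 are set beside S136X here, chosen after their values were seen. KLF2 differed by -0.13 (adjusted p = 0.939), S1PR1 by 0.16 (0.9), SELPLG by -0.04 (0.982), POU2AF1 by 0.00 (0.999) and BTG2 by -0.12 (0.793). Their log2 fold changes against vector were -1.50, -1.01, -1.14, -0.73 and -0.79 in R58Q and -1.38, -1.17, -1.11, -0.74 and -0.68 in S136X. None of the 5 was called between the mutants with the block. A p that misses the threshold does not show that the mutants act alike.

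Of the 25 genes below S136X, 15 were processed pseudogenes, 1 a transcribed processed pseudogene, 5 long non-coding RNAs and 4 protein-coding genes, RPL39 and NPIPB4, NPIPB5 and NPIPB12. In 19 of the 25, at least 50% of the 31-base words also occurred in another gene (median 79.5%), against 2 of the 41 genes above S136X (median 0.463%). RPL39 differed by -2.29 ± 0.10 (adjusted p = 0.000226). The later date of the R58Q columns and the construct cannot be told apart here.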

How the data were processed

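RNA of 9 RIVA samples (3 vector, 3 R58Q, 3 S136X) was measured by single-end sequencing of poly(A) RNA over 2 combined runs. The authors deposited 1 table of counts per gene (whole reads, not normalized). The submitters' processing notes name cutadapt, STAR, Picard and hg38. The counter and its treatment of reads that match several genes are not given in the sources used here. The 9 normalized columns of the table were not used. Of the tested identifiers, 99.1% were in GENCODE release 29, and 99.8% of those overlapped its positions, so coordinates are GRCh38.

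The 6 libraries of a comparison were fitted together in edgeR 4.0.16 (R 4.3.3, limma 3.58.1) by the quasi-likelihood F test, after filterByExpr (minimum count 10, total 15) and TMM, with Benjamini-Hochberg adjustment over all tested genes. Calls needed an adjusted p below 0.05 together with a 1.5-fold change. The SE was obtained as the size of the log2 fold change over the square root of F. CPM took TMM factors from all 9 samples. Scripts were tested on simulated data. A count of 0 allows up to 3 counts, counting error only. Replicates differed by more than sampling noise.

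Same-numbered vector and R58Q samples deviated together (correlation of deviations 0.163 to 0.494 in 3 pairs, against -0.459 to 0.169 in others), as did R58Q and S136X samples (0.405 to 0.626 against -0.453 to 0.051). The number was therefore used as a block in an alternative fit, while the main fit treated the samples as unpaired. The pairing comes from the data, since no label says what a number shares. The fits were repeated with DESeq2 1.42.0, with limma-voom, under upper-quartile scaling, on total counts alone, unfiltered, on genes with 10 counts in each sample, on all 9 samples, with the replicate block, and without each sample in turn. The fits that left out a sample had no replicate block.

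The comparison, lists and tests were chosen with earlier results of these data known. Named genes are BCL10, the 8 largest rises and falls in log2 fold change and the 5 in mean CPM (called, ranges apart, at least 1 CPM on average), and of each list the first 2 genes and the 3 largest called rises and falls. Other members of lists, genes of the direct comparison and multicopy genes were named after their values were seen. Shared sequence is the share of 31-base words of the longest GENCODE transcript found in another gene. Promoters came from RefSeq. Results for some items are not reported here.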

Additional observations from a re-analysis of the deposited data

How the results depend on the processing

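No named gene that was called changed sign under any alternative run, while 11 that were not called did, CDKN1A, HES1 and ASNS among them. The balance of calls turned: 632 higher and 546 lower genes became 740 and 906 with the replicate block, 549 and 741 with total counts only, and 542 and 772 with upper-quartile scaling. For R58Q against S136X (41 higher, 25 lower), DESeq2 gave 92 and 54, all 9 samples in one fit 65 and 55, no filter 104 and 61, and the replicate block 206 and 240. The other alternatives moved these 4 counts by less than 1.5 times. Leaving out 1 sample gave 474 to 634 genes higher and 245 to 614 lower than vector, and 1 to 53 higher and 4 to 14 lower than S136X. Fewer samples, and no replicate block, enter those fits. Of 129 named and called genes, 91 kept their call in all 6 omissions, 38 lost it in at least 1, and all 129 kept it with the replicate block. The median of all genes was -0.03 with TMM and -0.09 with total counts only or upper-quartile scaling, so a fold near 1.5 depends on the scaling. Depth limits genes under about 1 CPM. The cause of the other shifts was not tested.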

Other observations

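Over all genes tested, 4.09% were higher and 3.54% lower in R58Q than in vector. Of 2114 long non-coding RNAs, 120 (5.68%) were lower and 57 (2.7%) higher, with a median of -0.25, and the median in S136X was -0.21. The number lower was 221 with the replicate block, but omitting vector replicate 2 or 3 gave 49 or 52, and omitting R58Q replicate 2 or 3 gave 67 or 57. The number higher was 30 or 33 when vector replicate 2 or 3 was omitted, and 32 when R58Q replicate 3 was. Of 229 transcribed unprocessed pseudogenes, 14 (6.11%) were lower and 1 higher, and omitting vector replicate 2 or 3 gave 5 or 8 lower, omitting R58Q replicate 1 gave 9. Among 19 microRNA host genes 5 (26.3%) were higher and 1 lower.

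Immunoglobulin joining segments, short exons that are counted as genes of their own, were lower in 5 of 10 (IGHJ4, IGHJ5, IGHJ6, IGKJ4 and IGKJ5), with a median of -0.68. None of 10 constant genes was called by edgeR without the block or by DESeq2 (2 had an unadjusted p under 0.05, median -0.07). With the replicate block 2 constant genes were higher. Leaving out R58Q replicate 1 or 2 gave 1 lower, and leaving out vector replicate 3 gave 1 higher. The median of the joining segments in S136X was -0.40, against the same vector samples.

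By chromosome, genes of chromosome 21 had the highest share called higher, 16 of 148 (10.8%, against 4.09% of all genes), with 1 lower. COL1A1, in the list of fibroblast markers, rose from 3.86 ± 1.13 to 13.2 ± 3.51 CPM (1.77 ± 0.25, adjusted p = 0.00263, edgeR's quasi-likelihood F test), while COL1A2, of the same list, was not called (-1.25, adjusted p = 0.0928) but was called lower with the replicate block (-1.28, adjusted p = 0.000982). PECAM1 was at -0.45 (adjusted p = 0.0687), VWF and CDH5 were at 0 in all 6 samples and the whole list summed to 23 to 26.7 CPM in vector and 24.8 to 30.1 CPM in R58Q. MME (CD10) and SSBP2, markers of germinal-centre B-cell-like lymphoma, fell by 0.76 and 0.75 on the log2 scale (adjusted p = 0.0225 and 0.0289). Each lost its call in 4 of the 6 fits that left out a sample. BCL6, another of that list, rose. EPCAM, an epithelial marker, was at 44.1 ± 4.19 CPM in vector and 44 ± 9.77 CPM in R58Q.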
